A study of Mus musculus with 6 samples.

Results

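The 10 genes described here belong to the stratified epithelium of skin. They are the keratin genes Krt5, Krt14, Krt15, Krt1, Krt10, Krt6a and Krt17, the keratinocyte differentiation gene Krtdap, the desmosomal cadherin gene Dsg3 and the transcription factor gene Trp63. They were taken by symbol from the 55487 genes of the count table, and all 10 were found there. They had been chosen by the uneven spread of their CPM over these 6 tumors. Their levels in these tumors are therefore given as a description, with no test.

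The libraries were RNA-seq libraries of 6 CT26.WT tumors grown under the skin, 3 from control mice and 3 from mice given IFN-γ. CT26.WT cells are a colon carcinoma line derived from a BALB/c mouse, and the labels give the genotype as WT in both groups. The hosts were male immunocompetent BALB/c mice, 4 weeks old at purchase, and each received 1000000 CT26.WT cells under the skin of the upper right back. For stimulation, 100 µL of IFN-γ (100 ng/ml) was injected into the tail vein of each mouse of the IFN-γ group at intervals of 48 h, and control mice had 100 µL of PBS by the same route. The tumors were followed until they reached 1.5 cm in diameter. All tumors thus came from 1 established line, and each library was made from tissue that held host cells beside the carcinoma cells. Whether the skin over a tumor was trimmed before RNA extraction is not given in the sources used here.

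The epidermis is renewed from a basal layer whose cells carry the keratin pair of Krt5 and Krt14 and are anchored to the dermis. Cells that leave this layer switch to Krt1 and Krt10, bind each other by desmosomes, and at the surface become cornified cells sealed by cross-linked proteins and lipids. Krt6a, Krt6b, Krt16 and Krt17 are keratins of the hair follicle and of wounded or hyperproliferative epidermis, and p63, the product of Trp63, is the transcription factor on which stratified epithelia depend. A colon carcinoma is a simple epithelium, which is known for Krt8, Krt18 and Krt20 in place of these genes.

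The libraries held 15759300 to 17559680 counts on genes. Levels are given as CPM, read counts per 1000000 of the library size after TMM scaling. A count of 0 allows up to 3 counts, which corresponds to 0.169 to 0.188 CPM in these libraries and covers counting error only. IFN-γ tumor 3 stood apart from the other tumors of its group. With all 6 tumors, edgeR called 17 of the 15114 genes tested, 12 of them higher with IFN-γ and 5 lower, and without IFN-γ tumor 3 it called 381 higher and 112 lower. Of the defining markers of the labelled colon carcinoma, Krt20 lay between 113 and 271 CPM and Krt18 between 6.41 and 10.4 CPM. Krt8 was uneven, at 0.186 to 12.1 CPM, Cdx2 and Cldn3 had 0 counts in every tumor and Epcam had 1 to 15 counts per tumor.

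For 8 of the 10 genes, nearly all reads came from IFN-γ tumor 3 and control tumor 1. These 8, all but Krt10 and Trp63, were set apart after their values were seen. Together they had 168, 15 and 11 counts in control tumors 1, 2 and 3. In IFN-γ tumors 1, 2 and 3 they had 7, 5 and 1346 counts. The share of a gene's reads that lay in those 2 tumors ran from 90.2% for Krtdap to 100% for Krt15, Krt6a and Dsg3. Krt10 and Trp63 were read in all 6 tumors. In bulk tissue, fewer cells of a type and less RNA per cell cannot be told apart.

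IFN-γ tumor 3 was the highest tumor for 9 of the 10 genes, and Trp63 was the exception. Of the 9 genes with at least 10 counts over the tumors, 8 were highest in IFN-γ tumor 3, beside 20.9% of all 19266 genes with that many counts. Since the uneven spread chose the genes, nothing is read from this share. The groups overlapped for all 10 genes, and over all genes tested the share whose groups did not overlap was 15.1%.

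**Figure D1:**
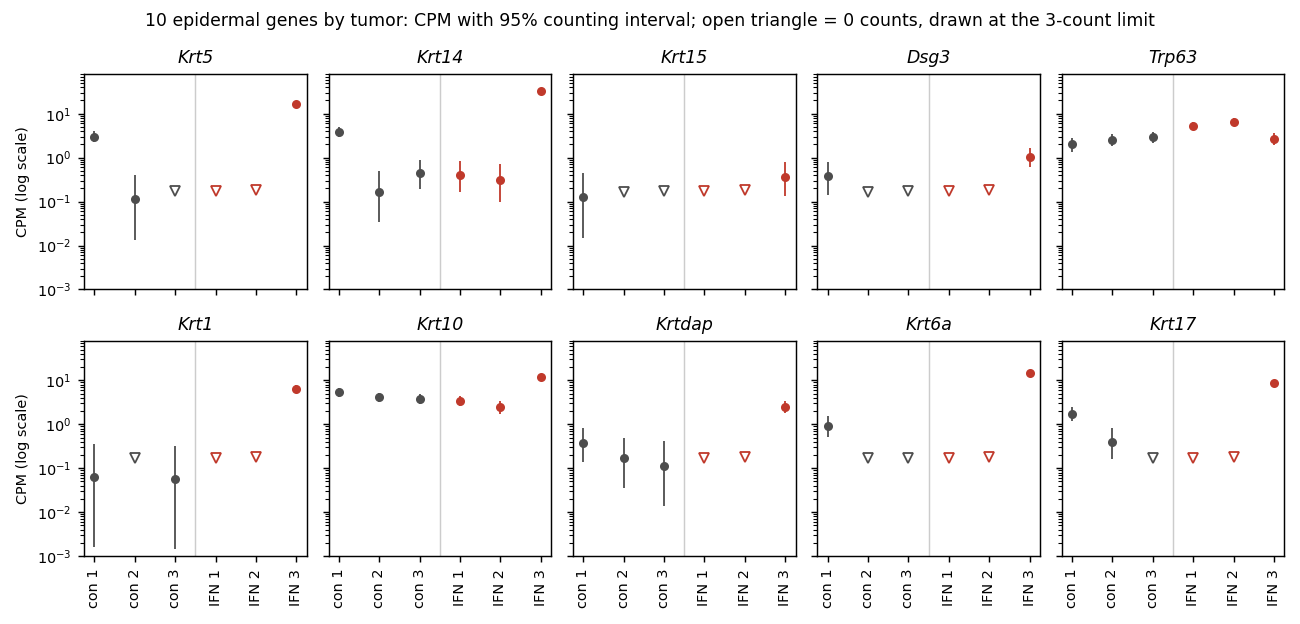
CPM of the 10 genes on a log scale in control tumors 1 to 3 (grey) and IFN-γ tumors 1 to 3 (red), with 95% exact Poisson intervals as bars. Open triangles mark tumors with 0 counts at the level of 3 counts. IFN-γ tumor 3 is highest in every panel except that of Trp63, which is highest in IFN-γ tumors 1 and 2.

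Among the genes of the basal layer, Krt14, which encodes the type I keratin of basal cells, had the most reads. It had 62, 3 and 8 counts in control tumors 1, 2 and 3, or 3.88, 0.169 and 0.457 CPM. In IFN-γ tumors 1, 2 and 3 it had 7, 5 and 537 counts, or 0.406, 0.305 and 33.2 CPM. IFN-γ tumor 3 was thus 8.57-fold above control tumor 1, and the other 4 tumors lay below 0.5 CPM. Krt5 encodes the type II partner of Krt14. It was at 3.001, 0.113 and 0 CPM in the controls and at 0, 0 and 16.4 CPM with IFN-γ, which corresponds to 48, 2, 0, 0, 0 and 266 counts. Both partners therefore had most of their reads in the same pair of tumors, and the ratio of IFN-γ tumor 3 to control tumor 1 was 5.48 for Krt5.

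Krt15, a basal keratin also known from the stem cells of the hair follicle bulge, had 8 reads in all. Of these, 2 were in control tumor 1 and 6 in IFN-γ tumor 3, so its level was near the detection limit in both. Dsg3, on chromosome 18, encodes a desmosomal cadherin of the lower epidermal layers and is known as the autoantigen of pemphigus vulgaris. It had 6 counts (0.375 CPM) in control tumor 1, 17 counts (1.05 CPM) in IFN-γ tumor 3 and 0 counts in the other 4 tumors.

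Trp63 had a different order of tumors. Control tumors 1, 2 and 3 had 32, 45 and 51 counts of it, and IFN-γ tumors 1, 2 and 3 had 91, 106 and 44. In CPM this was 2.001, 2.54 and 2.91 against 5.28, 6.48 and 2.72. IFN-γ tumors 1 and 2 were above every control, whereas IFN-γ tumor 3, the tumor with the most keratin reads, lay within the range of the controls. In control tumor 1 and IFN-γ tumor 3 it was read at 2.001 and 2.72 CPM, while Krt14 was 8.57-fold apart between the same tumors. Over the 6 tumors, the Pearson correlation of log2(CPM + 0.5) with Krt14 was -0.44 for Trp63 and between 0.91 and 0.996 for the other 8 genes. The tumors are few, IFN-γ tumor 3 sets most of the range, and without it the 8 correlations lay between 0.69 and 0.98. Control tumor 1 was then highest for all 8 and for Krt14. Krt15, Krt6a and Dsg3 had reads in it alone among those tumors, and each had the same value of 0.98. Nothing is read from these correlations.

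Of the genes of the upper layers, Krt1 was the most uneven. It encodes the type II keratin of differentiating suprabasal cells. It had 105 counts (6.49 CPM) in IFN-γ tumor 3, 1 count in each of control tumors 1 and 3, and 0 counts in the remaining 3. Its partner Krt10 was read in every tumor. Krt10 had 85, 73 and 67 counts in the controls, or 5.31, 4.12 and 3.83 CPM. With IFN-γ the counts were 60, 40 and 198, or 3.48, 2.44 and 12.2 CPM. The 5 tumors other than IFN-γ tumor 3 therefore spanned 2.44 to 5.31 CPM of Krt10 with at most 1 read of Krt1. Krt10 lies across the antisense gene Gm11940, and without a stated strand setting reads of the 2 cannot be told apart. Gm11940 itself had 2 to 8 counts per tumor, and 2 in IFN-γ tumor 3.

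Krtdap encodes a small secreted protein of suprabasal keratinocytes. It had 6, 3 and 2 counts in the controls, or 0.375, 0.169 and 0.114 CPM. It had 0 counts in IFN-γ tumors 1 and 2 and 40 (2.47 CPM) in IFN-γ tumor 3. Only control tumor 1 and IFN-γ tumor 3 were above the level of 3 counts.

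Krt6a and Krt17 are the stress and follicle keratins among the 10. Krt6a, a type II keratin induced in wounds, had 15 counts (0.938 CPM) in control tumor 1 and 232 (14.3 CPM) in IFN-γ tumor 3, and 0 in the other 4 tumors. The ratio of these 2 tumors, 15.3, was the highest of the 10 after that of Krt1. Krt17, a type I keratin of the follicle, nail bed and activated epidermis, had 28 and 7 counts in control tumors 1 and 2, 143 in IFN-γ tumor 3 and 0 in the remaining 3. In CPM it was at 1.75 and 0.395 in control tumors 1 and 2 and at 8.84 in IFN-γ tumor 3.

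Levels between genes were compared as CPM per kilobase of exonic length. In IFN-γ tumor 3, Krt14 was highest at 18.9, followed by Krt5 at 7.49. Krt6a, Krt10 and Krt17 followed at 5.93, 5.79 and 5.70, and with 143 to 232 counts each these 3 did not differ beyond counting error. Krtdap was at 3.64 and Krt1 at 1.47, and Trp63, Krt15 and Dsg3 lay between 0.151 and 0.324. In control tumor 1 the order began with Krt10 at 2.51 and Krt14 at 2.20 CPM per kilobase, which their counting intervals did not separate, and Krt5 was at 1.37.

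The 7 keratin genes lie in the 2 keratin clusters of the mouse genome, in GRCm38 coordinates of the GENCODE M21 annotation. The type I genes are on the minus strand of chromosome 11, with Krt10 at chr11:99385254-99389364, Krt15 at chr11:100131758-100135928, Krt14 at chr11:100203162-100207548 and Krt17 at chr11:100256217-100261029. The type II genes are on the minus strand of chromosome 15, with Krt6a at chr15:101689910-101694307, Krt5 at chr15:101707070-101712898 and Krt1 at chr15:101845426-101850794. Krtdap is at chr7:30787896-30791097 and Trp63 at chr16:25683763-25892102, both on the plus strand. All 10 are annotated as protein-coding.

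Reads of Krt6a can be shared with its neighbor Krt6b, which had 6 counts in control tumor 1, 299 in IFN-γ tumor 3 and 0 in the other tumors. Of the 1610 windows of 50 bases in the Krt6a coding sequence, 60.4% were found identically in Krt6b. The longest shared run was 280 bases, from coding base 34 to 313, at chr15:101693936-101694215 in Krt6a and chr15:101679911-101680190 in Krt6b. It lies within an exon of each gene and is shown from the GENCODE M21 transcripts, in the direction of transcription. A read inside it cannot be assigned to either gene.
Krt6a and Krt6b, shared run: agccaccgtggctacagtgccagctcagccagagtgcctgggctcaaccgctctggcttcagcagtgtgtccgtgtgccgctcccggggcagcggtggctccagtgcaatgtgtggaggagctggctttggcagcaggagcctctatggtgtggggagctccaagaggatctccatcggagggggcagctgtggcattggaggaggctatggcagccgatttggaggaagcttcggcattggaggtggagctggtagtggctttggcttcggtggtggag
The share was 8.87% for Krt5 against Krt6a, 13.3% for Krt14 against Krt16 and 3.92% for Krt14 against Krt17. Krt6a and Krt6b are therefore best read as a pair, with 21 counts in control tumor 1 and 531 in IFN-γ tumor 3.

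RefSeq start site windows were matched for 4 of the 10 genes, Krt5, Krt14, Krt10 and Krtdap. The window of Krt14 begins inside the gene as GENCODE M21 annotates it and is not shown. The others are given because these genes were read together in IFN-γ tumor 3, beside Lor, a cornified layer gene found in that tumor alone, and Krt71, a follicle keratin found in other tumors. Each window runs 5′ to 3′ from 250 bases before the start site to 50 after it, on GRCm38.p6, at chr15:101712856-101713155 for Krt5, chr11:99389315-99389614 for Krt10, chr7:30787655-30787954 for Krtdap, chr3:92083093-92083392 for Lor and chr15:101743048-101743347 for Krt71. Capitals mark matches to TATAAA, to TGA and TCA with any base between them (the AP-1 motif), to GCCNNNGGC (the AP-2 motif) or to CCAAT, searched on both strands.
Krt5: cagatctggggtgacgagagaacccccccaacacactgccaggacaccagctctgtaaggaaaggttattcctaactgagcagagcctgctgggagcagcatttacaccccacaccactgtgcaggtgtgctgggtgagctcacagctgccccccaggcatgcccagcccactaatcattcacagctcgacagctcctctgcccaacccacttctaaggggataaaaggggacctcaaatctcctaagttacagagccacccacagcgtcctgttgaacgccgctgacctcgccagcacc
Krt10: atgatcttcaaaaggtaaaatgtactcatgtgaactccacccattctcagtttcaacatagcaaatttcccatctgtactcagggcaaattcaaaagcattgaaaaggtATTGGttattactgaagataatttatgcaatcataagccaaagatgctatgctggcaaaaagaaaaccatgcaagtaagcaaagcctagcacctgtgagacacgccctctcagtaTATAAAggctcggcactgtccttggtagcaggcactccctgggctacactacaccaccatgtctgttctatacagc
Krtdap: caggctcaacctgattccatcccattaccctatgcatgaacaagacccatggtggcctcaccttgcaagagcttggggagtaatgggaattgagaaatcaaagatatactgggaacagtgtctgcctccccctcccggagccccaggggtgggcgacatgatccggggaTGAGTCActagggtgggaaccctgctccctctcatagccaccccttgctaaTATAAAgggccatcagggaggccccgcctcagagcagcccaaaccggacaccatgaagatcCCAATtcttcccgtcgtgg
Lor: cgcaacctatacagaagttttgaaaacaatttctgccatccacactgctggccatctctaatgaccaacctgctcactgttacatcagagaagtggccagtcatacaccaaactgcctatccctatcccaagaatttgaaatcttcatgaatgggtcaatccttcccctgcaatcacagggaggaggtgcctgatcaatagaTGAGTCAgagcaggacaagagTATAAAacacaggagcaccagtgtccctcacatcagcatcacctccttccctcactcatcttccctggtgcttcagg
Krt71: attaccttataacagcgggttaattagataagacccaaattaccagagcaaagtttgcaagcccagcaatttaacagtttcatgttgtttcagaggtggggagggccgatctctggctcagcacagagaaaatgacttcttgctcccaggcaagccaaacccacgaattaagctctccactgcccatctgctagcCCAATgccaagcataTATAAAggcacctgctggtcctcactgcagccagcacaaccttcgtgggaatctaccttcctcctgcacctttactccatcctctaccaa
TATAAA stood 26 bases before the start in Krt10, 30 in Krtdap, 27 in Lor and 40 in Krt71, and 13.6% of all 32851 windows hold it on either strand. TGAGTCA was found 81 bases before the start of Krtdap and 48 before that of Lor, and 7.81% of windows hold the AP-1 motif. CCAAT, present in 37.4% of windows, was found in Krtdap and Krt71 and, on the opposite strand as ATTGG, in Krt10. GCCNNNGGC, present in 16.6% of windows, was in none of the 5, and Krt5 held none of the 4 motifs in these letters. These matches describe the sequence only.

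To see which other genes of the epidermis had reads where these 10 did, lists of its layers were examined. Of the 25 genes listed for the spinous layer, 18 had at least 10 counts, and 15 of these were highest in IFN-γ tumor 3. Of all 19266 genes with that many counts, 20.9% were highest there. Some of the 15 reached 10 counts only through that tumor, and nothing is read from this count. Dmkn, which encodes dermokine of the upper layers, had 3, 2, 0, 5, 3 and 99 counts in control tumors 1 to 3 and IFN-γ tumors 1 to 3. Perp, a desmosomal target of p63, had 17, 12, 3, 6, 4 and 96 counts in the same order. The desmosomal cadherin genes Dsc1 and Dsc3 had 43 and 38 counts in IFN-γ tumor 3 and at most 6 elsewhere. Dsp, which encodes desmoplakin, had 105 there and 5 to 25 elsewhere. By contrast, Jup, which encodes plakoglobin of both desmosomes and adherens junctions, was level over the tumors at 46.2 to 53.7 CPM. Klf4 and Klf5, transcription factors of many epithelia, were likewise read in every tumor, at 125 to 160 and 21.7 to 37.7 CPM.

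The cornified layer and barrier list held 46 genes. Of these, 43 had a count, and 21 of the 43 had counts in IFN-γ tumor 3 alone. Among the 24 genes with at least 10 counts, 6 were read in that tumor alone, and these reached 10 counts only through it. Since several spinous genes did so too, and the lists were written with earlier results known, nothing is read from these counts. The 6 were Sprr1b with 38 counts, Rptn with 16, Lor with 14, Lce1a1 with 13, Casp14 with 12 and Flg with 10. Lor, Sprr1b and Lce1a1 encode proteins cross-linked into the cornified envelope. Flg encodes filaggrin, which bundles keratin filaments, and Casp14 encodes a protease of its processing. Ivl, which encodes involucrin, had 1 count, and Flg2 had 0 in every tumor. The summed level of the list was 25.1 to 33.2 CPM in the controls, at 25.6 and 28.3 CPM in the first 2 IFN-γ tumors, and at 55.8 CPM in IFN-γ tumor 3. Its genes of highest mean CPM, Hal, Cdsn and Tgm1, were read in all 6 tumors. Cdsn, which encodes corneodesmosin, was at 11.9, 5.75 and 4.23 CPM in the controls and 2.55, 1.34 and 6.43 CPM in the IFN-γ tumors.

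The basal layer list behaved differently from Krt5 and Krt14. Its genes of highest mean CPM were Dst, Itgb4 and Itga6, hemidesmosome genes that many carcinoma cells also express, at 332 to 560, 351 to 503 and 242 to 334 CPM. None of the 3 was highest in IFN-γ tumor 3 or passed the adjusted threshold in edgeR, while DESeq2 called Itgb4 lower (log2 fold change -0.37). Col17a1, the transmembrane collagen of the hemidesmosome, had 57 counts in IFN-γ tumor 3 and 10 to 24 in every other tumor. Of the 18 genes of this list with at least 10 counts, 4 were highest in IFN-γ tumor 3, beside 20.9% of all 19266 genes with that many counts. Nothing is read from this count.

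**Figure D2:**
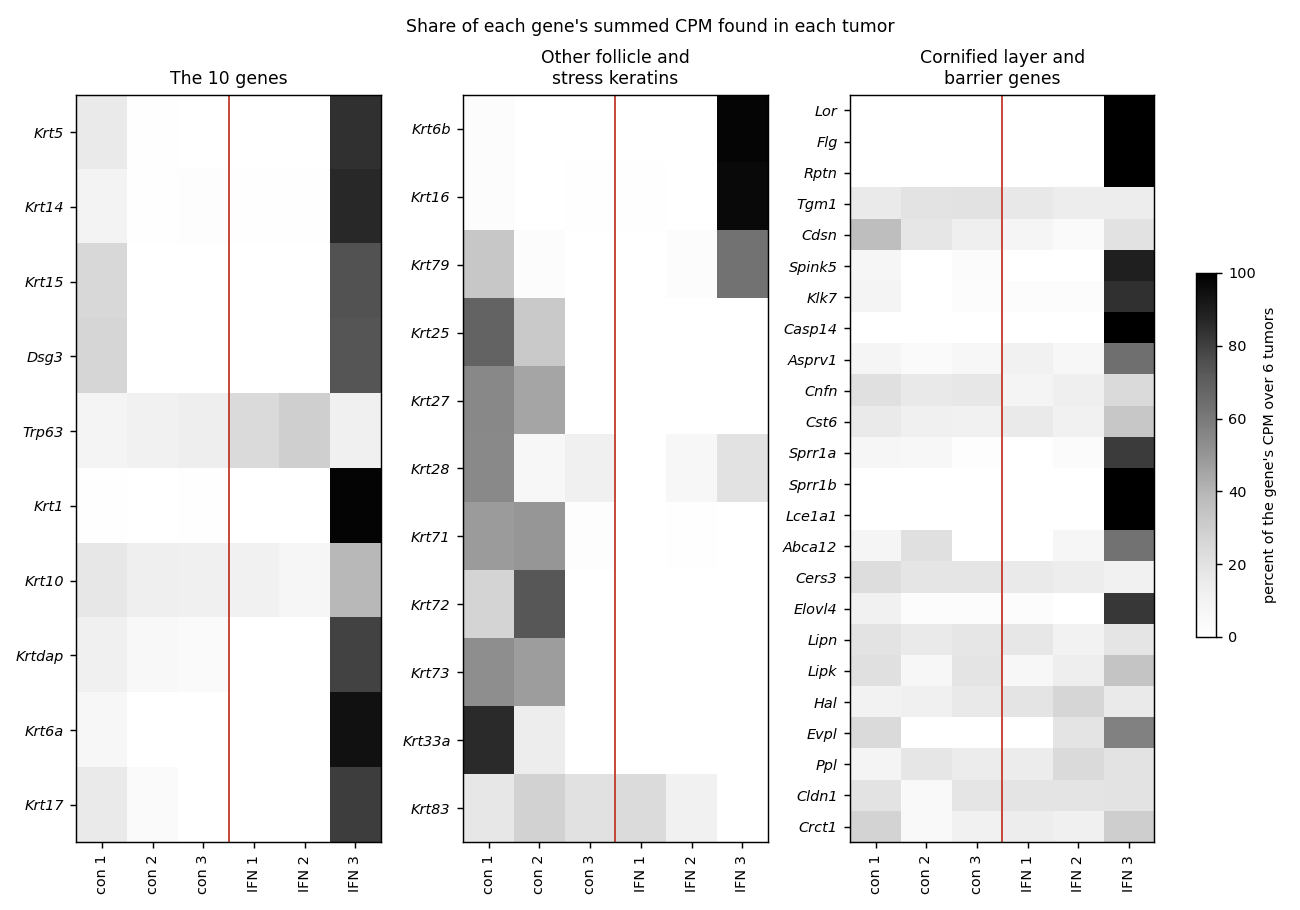
Percent of each gene's CPM, summed over 6 tumors, that was found in each tumor (white, 0; black, 100), for the 10 genes, for other follicle and stress keratins and for cornified layer and barrier genes with at least 10 counts. Lor, Flg, Rptn, Casp14, Sprr1b and Lce1a1 are black in IFN-γ tumor 3 alone, and Krt25, Krt27, Krt71, Krt72 and Krt73 are shaded in control tumors 1 and 2.

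The keratins of the follicle fell into distinct patterns. Krt16, the type I partner of the Krt6 keratins, had 145 counts in IFN-γ tumor 3 and at most 3 in any other tumor, much as Krt6a and Krt6b did. Keratins of the inner root sheath, the layer that encloses the growing hair, had reads in control tumors 1 and 2 instead. Krt71 had 62 and 71 counts there, 2 in control tumor 3, and 0, 1 and 0 in the IFN-γ tumors. Krt25 had 54 and 28 counts, and Krt27 21 and 19, with 0 in the other 4 tumors. Tchh, which encodes the trichohyalin of the inner root sheath, had 62 and 68 counts in these 2 tumors and 2 to 4 in the others. The 7 inner root sheath keratins Krt25 to Krt28 and Krt71 to Krt73, grouped after their values were seen, summed to 9.88 CPM in control tumor 1, 8.01 CPM in control tumor 2, and 0 to 0.229 CPM in the other 4. The follicle genes that are not keratins were led by Lgr6, Tchh and Padi3. They summed to 12.9 to 20.9 CPM in the controls and 7.60 to 9.15 CPM in the IFN-γ tumors. Lgr6 made up most of this sum, at 9.25, 14.9 and 11.9 CPM in the controls and 6.33, 6.72 and 8.35 CPM in the IFN-γ tumors. It was not called (edgeR, adjusted p = 0.300), and 15.1% of all genes tested had groups that did not overlap. Of the keratins of other epithelia, 5 of 9 had counts and summed to 38.2 to 58.1 CPM, nearly all from Krt80, a keratin of many epithelia, at 37.8 to 56.7 CPM. Control tumor 2 was close to control tumor 1 in the inner root sheath keratins, although it had 0.846 CPM of the 8 epidermal genes together against 10.5 CPM in control tumor 1.

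Within a tumor, counts can be set against Krt14 without regard to depth. The share of a gene in the sum of its own and the Krt14 counts was compared between control tumor 1 and IFN-γ tumor 3, with 95% Clopper-Pearson intervals. The values compare 2 libraries, not the conditions, and overlapping intervals do not show that 2 shares are equal. For Krt5 the share was 43.6% (34.2 to 53.4) in control tumor 1 and 33.1% (29.9 to 36.5) in IFN-γ tumor 3, so the basal partners had overlapping intervals. The intervals also overlapped for Krt17, at 31.1% (21.8 to 41.7) and 21.03% (18.02 to 24.3), and for the suprabasal Krtdap, at 8.82% (3.31 to 18.2) and 6.93% (4.998 to 9.32).

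For several other keratins the intervals lay apart, in both directions, whereas those of Krt15 and of Krt6a taken alone overlapped. Krt1 made up 1.59% (0.0402 to 8.53) in control tumor 1 and 16.4% (13.6 to 19.4) in IFN-γ tumor 3, whereas its partner Krt10 made up 57.8% (49.4 to 65.9) and 26.9% (23.8 to 30.3). The shares of this pair thus differed in opposite directions between the 2 tumors. However, Krt10 was also read at 2.44 to 4.12 CPM in the other tumors, which had only 3 to 8 counts of Krt14. Its share in control tumor 1 can therefore include reads that did not accompany Krt14, and how much of the difference they make up was not tested. Krt16 made up 4.62% (0.962 to 12.9) and 21.3% (18.2 to 24.5), and the sum of Krt6a and Krt6b 25.3% (16.4 to 36.04) and 49.7% (46.7 to 52.76). Krt79, a keratin of the follicle opening and the sebaceous duct, was the higher in control tumor 1, at 18.4% (10.5 to 29.0) against 4.79% (3.18 to 6.89). Krt71 made up 50% (40.9 to 59.1) in control tumor 1, and in IFN-γ tumor 3 it had 0 counts beside 537 of Krt14, with an upper bound of 0.685%.

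**Figure D3:**
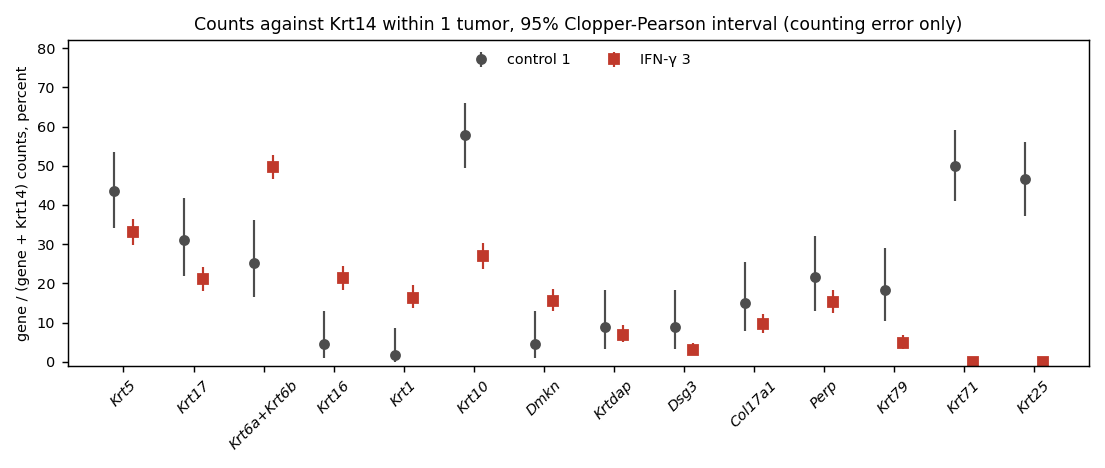
Share of each gene in the sum of its counts and those of Krt14, in percent, in control tumor 1 (grey circles) and IFN-γ tumor 3 (red squares), with 95% Clopper-Pearson intervals that cover counting error only. Intervals overlap for Krt5, Krt17, Krtdap, Dmkn, Dsg3, Col17a1 and Perp. They lie apart for Krt6a with Krt6b, Krt16, Krt1, Krt10, Krt79, Krt71 and Krt25.

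Whether the genes differed between the IFN-γ and control groups was read from the fit across all genes. Only Krt10 and Trp63 passed the filter on low counts, and edgeR's quasi-likelihood test called neither, so 0 of the 10 were called. The share called over all genes tested was 0.112%, with 0.0794% called higher and 0.0331% called lower. Trp63 had an unadjusted p under 0.05 in edgeR, as had 1539 of all 15114 genes tested, Trp63 included. DESeq2 and limma-voom called 0 of the 10. Without the filter, edgeR called 0 of the 10, beside 0.819% of the 26868 genes then tested. Summed over the 10 genes, the level was 17.8, 7.50 and 7.37 CPM in the controls and 9.17, 9.22 and 98.2 CPM in the IFN-γ tumors. On the log2(sum + 0.5) scale the mean was 3.39 ± 0.70 (SD, n = 3) in the control group and 4.39 ± 1.93 (SD, n = 3) in the IFN-γ group. The difference of 1.003 was smaller than the spread within the IFN-γ group, and it was -0.11 without IFN-γ tumor 3. In control tumors 2 and 3 and IFN-γ tumors 1 and 2, Krt10 and Trp63 made up most of the sum. The other 8 genes summed to 10.5, 0.846 and 0.629 CPM in the controls and 0.406, 0.305 and 83.2 CPM in the IFN-γ tumors.

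For Trp63 the log2 fold change was 0.95 (standard error 0.34; edgeR, adjusted p = 0.392) with all 6 tumors and 1.23 (standard error 0.25; edgeR, adjusted p = 0.0390) without IFN-γ tumor 3. The share of all genes called higher in the fit of those 5 tumors was 2.46%. For Krt10 it was 0.45 (standard error 0.54; edgeR, adjusted p = 0.831) with 6 tumors and -0.58 (standard error 0.27; edgeR, adjusted p = 0.351) without IFN-γ tumor 3. The direction of Krt10 thus rested on that tumor. The choice of the 10 genes used these values, and the calls are given as a description.

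Of the 137 other genes of the epidermis and its appendages in the table, 125 had a count and 35 were tested. edgeR called 0 of the 35 in either direction, with 7 at an unadjusted p under 0.05, beside 1539 of all 15114 genes tested. DESeq2 called 2 lower and limma-voom 0. The median log2 fold change of the 35 was -0.17, beside 0.0015 over all genes tested. Over all genes tested, DESeq2 called 0.47% lower. Without IFN-γ tumor 3, 3 of 40 were called lower and 0 higher, beside 0.723% of all genes called lower in that fit. The 3 genes included Igfbp3, a binding protein for insulin-like growth factors (log2 fold change -0.92), and Klf5 (-0.56).

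Markers of other tissues that a subcutaneous tumor can hold were summed beside the 10 genes. All 18 skeletal muscle genes had counts, led by Acta1, Eno3 and Myh4, and they summed to 311, 448 and 1509 CPM in the controls and to 655, 856 and 334 CPM in the IFN-γ tumors. Control tumor 1 and IFN-γ tumor 3, the highest in epidermal keratins, were the lowest of their groups in muscle genes. The 12 dermal fibroblast genes, led by Col3a1, Col1a1 and Dcn, summed to 1582 to 3039 CPM in the controls and 1768 to 3216 CPM in the IFN-γ tumors, with IFN-γ tumor 3 the lowest of its group at 1768 CPM. The 12 adipocyte genes, led by Fabp4, Car3 and Lipe, summed to 148, 148 and 230 CPM in the controls and 243, 335 and 265 CPM in the IFN-γ tumors. Cd207, which encodes langerin of Langerhans cells, had 5, 4, 1, 11, 5 and 19 counts in the 6 tumors in order. Its highest count was in IFN-γ tumor 3, as was that of Epcam, with 15. Trdv4, the T cell receptor segment on this short list, had 8, 5, 8, 10, 3 and 2 counts in the same order and was lowest in that tumor. The sebaceous gland list, of which all 10 genes had counts, summed to 52.6, 43.7 and 35.03 CPM in the controls and to 35.2, 37.4 and 39.6 CPM after IFN-γ, mostly from Acsbg1. The part of these tissues in the spread of the 10 genes was not tested.

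The simple epithelial list, written for genes of simple epithelium and carcinoma, had 14 of its 16 genes detected, with Cdx2 and Cldn3 at 0. It summed to 171 to 192 CPM in the controls, at 132 CPM in IFN-γ tumor 1, at 126 CPM in IFN-γ tumor 2, and at 288 CPM in IFN-γ tumor 3. Krt20, the gut keratin that makes up most of this sum, was at 174, 152 and 159 CPM in the controls and 119, 113 and 271 CPM in the IFN-γ tumors. IFN-γ tumor 3 was highest for Krt20, by 1.55-fold over the next tumor. Since Krt20 made up most of it, the sum is not read as the amount of carcinoma. The other keratins of simple epithelium had other orders. Krt18 was at 9.96 CPM in IFN-γ tumor 3 and 8.06 to 10.4 CPM in the controls. Krt8 had 17, 19 and 211 counts in control tumors 1 to 3 and 22, 21 and 3 in IFN-γ tumors 1 to 3, so it was highest in control tumor 3 and lowest in IFN-γ tumor 3.

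**Figure D4:**
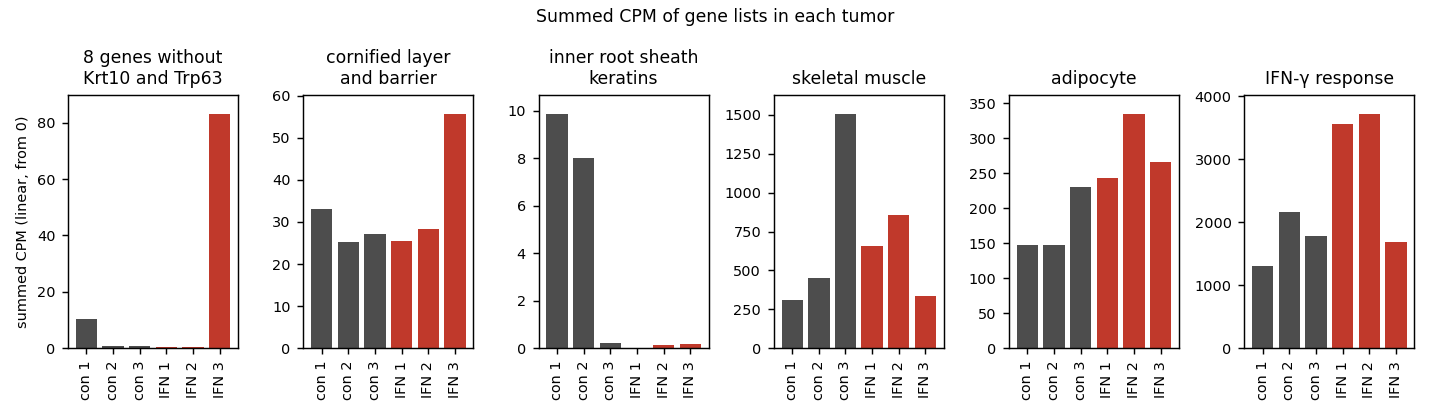
Summed CPM, on linear axes from 0, of the 8 genes without Krt10 and Trp63, of cornified layer, inner root sheath, skeletal muscle and adipocyte genes and of IFN-γ response genes in each tumor (grey, control; red, IFN-γ). The 8 genes reach 83.2 CPM in IFN-γ tumor 3 and 10.5 CPM in control tumor 1, whereas the IFN-γ response genes are highest in IFN-γ tumors 1 and 2.

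Trp63 was highest in the same tumors as the genes of the response to IFN-γ. The 14 IFN-γ response genes, among them Gbp2, Gbp3 and Cxcl9, summed to 1297, 2159 and 1783 CPM in the controls and to 3559, 3723 and 1683 CPM in the IFN-γ tumors. IFN-γ tumor 3 lay within the range of the controls for this list, as it did for Trp63. Over the 6 tumors the log2 levels of Trp63 and of the summed list had a Pearson r of 0.95 and a Spearman rho of 0.83. For Krt14 the values were -0.57 and -0.77, and for Krt10 -0.64 and -0.89. These describe 6 tumors, of which IFN-γ tumors 1 and 2 form a cluster of their own, and nothing about control of Trp63 is read from them.

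**Figure D5:**
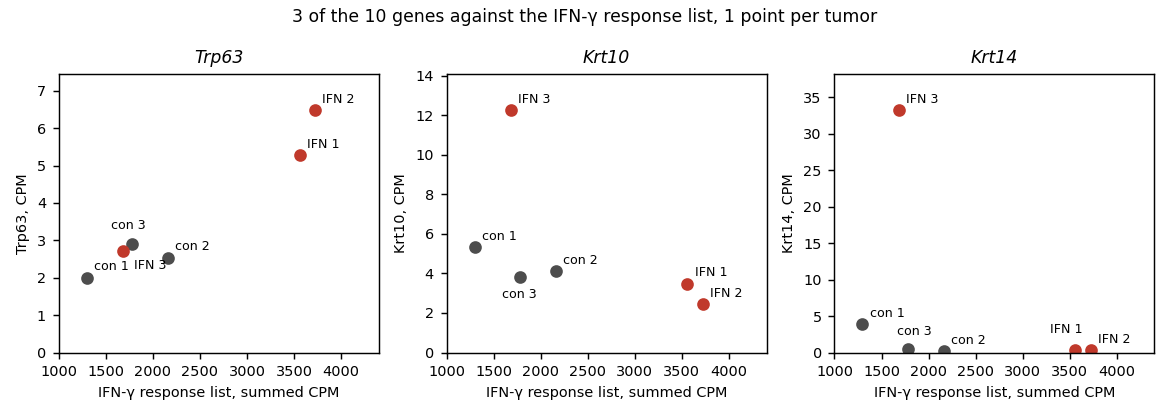
CPM of Trp63, Krt10 and Krt14 against the summed CPM of 14 IFN-γ response genes, 1 point per tumor (grey, control; red, IFN-γ), on linear axes. Trp63 is highest in IFN-γ tumors 1 and 2, at 5.28 and 6.48 CPM, whereas Krt10 and Krt14 are highest in IFN-γ tumor 3.

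Of 15014 tested genes outside every list, the 10 whose pattern was most like the mean of the 10 epidermal genes had Pearson r between 0.984 and 0.9999 over 6 tumors. They were Irx2, Isg20l2, Mapk3, Taf1b, Mier3, Fbxl14, Gtf2f2, Polh, Thap12 and Anxa7. All were read in every tumor and were highest in IFN-γ tumor 3, by 1.13- to 1.23-fold over the next. Their likeness lies mainly in IFN-γ tumor 3 standing above the rest, and not in the size of the difference. The order of the other tumors was not the same from gene to gene. Irx2, for example, ran from 21.4 to 28.7 CPM.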

How the data were processed

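Gene expression was measured by RNA-seq in 6 subcutaneous CT26.WT tumors (control, n = 3; IFN-γ, n = 3), grouped by the treatment in the sample labels. The deposited file holds raw counts, that is whole numbers of reads on each gene with no scaling by the authors. The submitters' processing notes name HISAT2 and mm10. The counting program, annotation and strand setting are not given in the sources used here, so overlapping and near-identical genes are uncertain. Of the identifiers, 99.4% were in GENCODE M21. Totals were 15759300 to 17559680 counts, which limit precision as the stated counting intervals show. No molecular identifiers are stated, so intervals and detection limits cover counting error only. No pair of libraries agreed within sampling noise (lowest chi-square per gene 6.17).

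TMM-scaled CPM and a quasi-likelihood test over all genes were computed with edgeR 4.0.16 in R 4.3.3, with its default filter, Benjamini-Hochberg adjustment and a threshold of 0.05. The standard error was the size of the log2 fold change divided by the square root of F. Log2 levels used a pseudocount of 0.5 CPM. Alternatives were limma-voom (limma 3.58.1), DESeq2 1.42.0, upper-quartile factors, scaling by library size, other filters, a block for the replicate number and leaving out each tumor. Intervals came from SciPy 1.17.1. The code was tested on simulated counts. P-values measure the spread between these tumors.

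The 10 genes and the 14 other gene lists, written from general knowledge, were chosen with earlier results of these data known. Beside the 10 genes, those past the threshold and the 3 of highest mean CPM in each list were to be named, with the 10 genes outside the lists most correlated with the mean of the 10. Any other gene was named with its values known. Flow cytometry, staining, blots and other assays of the study were not analysed here. The values of 1 listed gene are not given.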

Additional observations from a re-analysis of the deposited data

How the results depend on the processing

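Leaving out each tumor in turn gave 4 to 381 genes called higher and 2 to 112 called lower over all genes, with the upper ends without IFN-γ tumor 3, and 0 to 1 of the 10 epidermal genes called higher, the 1 being Trp63 without that tumor. The same fits gave log2 fold changes of -0.58 to 0.83 for Krt10, with -0.58 without IFN-γ tumor 3, and of 0.68 to 1.23 for Trp63. Other epidermal genes called lower numbered 0 to 3, with 2 without control tumor 3 (Krt71 and Tchh) and 3 without IFN-γ tumor 3. Over all genes, the 12 higher and 5 lower calls became 7 higher with library size alone, 125 and 71 with DESeq2, 3 lower with limma-voom and 150 and 70 with no filter on low counts. Among the other epidermal genes, DESeq2 called 2 lower (Igfbp3 and Itgb4), and the fit with no filter called 1 higher (Dmkn) and 5 lower (Igfbp3, Krt25, Krt27, Krt71 and Tchh). The replicate numbers did not pair the tumors, since deviations of same-numbered tumors had correlations of -0.21, -0.014 and -0.21. With a replicate block, 5 genes were called higher and 2 lower, and no call of an epidermal gene changed. The summed level of the 10 genes differed by 1.003 with the block, and by -0.11 to 1.56 when single tumors were left out. Why single alternatives moved the counts was not tested. At this depth, Krt15 and Dsg3, with 8 and 23 reads in all, allow no statement on the 4 tumors in which they had 0 counts beyond the limit of 3 counts.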

Other observations

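Genes outside the lists also had reads in IFN-γ tumor 3 almost alone. Genes with at least 10 counts in a tumor and at least 10-fold the raw count of every other tumor were sought. For IFN-γ tumor 3, 22 were found, against 0 to 2 for each of the other 5 tumors. Of the 22, 15 were in the epidermal lists, Krt1 and Krt6a included. The 7 others, named after their values were seen, were Calm4 with 87 counts, Cstdc5 with 69, Stfa3 with 45, Klk6 with 26, Csta1 with 22, Sprr2a3 with 14 and Serpinb3b with 10. Klk6 encodes a kallikrein protease of skin, Csta1 and Stfa3 belong to the stefin family of cysteine protease inhibitors, and Sprr2a3 encodes a small proline-rich protein. The highest count of any of the 7 in another tumor was 6, for Cstdc5.

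Genes were sought with at least 5 counts in each of control tumors 1 and 2 and at most 5% elsewhere. The rule found 8 genes, among them Dct, Krtap7-1 and Prr9. It fixed their pattern, so nothing is read from that pattern. Of all 19266 genes with at least 10 counts, 13 had no reads outside control tumors 1 and 2. For control tumor 1 and IFN-γ tumor 3 the number was 20. Dct, an enzyme of melanin synthesis, had 5 counts in each of control tumors 1 and 2 and 0 in the other 4 tumors. The pigment cell gene Pmel had 7 to 10 counts in every tumor. Of the 7 pigment cell genes listed, 4 had a count, and Tyr, Oca2 and Slc45a2 had 0 in every tumor. Tyrp1 had 2 counts, both in control tumor 1. Mlana had 4, spread over control tumor 2 and IFN-γ tumors 2 and 3. Krtap7-1, which encodes a keratin-associated protein of the hair shaft, had 8 counts in each of control tumors 1 and 2 and 0 elsewhere. Prr9 had 12 and 10 counts in control tumors 1 and 2 and 0 elsewhere. These counts are small, and where 5 or fewer reads were found the interval of a tumor covers a wide range.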
